A study of Arabidopsis thaliana with 12 samples.

Results

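The genes described here are the photosynthesis genes that the chloroplast keeps in its own genome: 43 of the 22746 probe sets on the array that are not controls. A probe set was taken when the platform annotation names 1 gene for it, that gene lies in the plastid genome, and its symbol begins with psa, psb, pet, atp or ndh or is rbcL. Photosystem I has 5 of these genes, photosystem II 15, the cytochrome b6f complex 6, the plastid ATP synthase 6, the NDH complex 10 and Rubisco 1. The gene table lists 45 such genes, and the remaining 2 are the copies of ndhB, which share a probe set annotated to both and are not analysed here. All 43 passed the filter on dim signals described with the processing.

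Transcripts were measured on 12 single-colour arrays of unshaded mature rosette leaves of Arabidopsis thaliana at developmental stage 3.7. The groups were ape2 H, ape2 L, Ws-2 H and Ws-2 L, with 3 arrays each. Ws-2 is a natural accession and serves as the wild type. The line ape2 carries a T-DNA insert in the Ws-2 background, is 1 insertion line, and belongs to a series on a mutant of TPT, the translocator that exports triose phosphate from the chloroplast. H and L are the letters of the sample titles, which do not spell them out. Nothing in the labels says whether arrays of a group came from separate plants, so p-values measure the spread between these arrays, which may be technical.

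Plastid photosynthesis genes encode the core subunits of each complex, while most of the peripheral subunits, the antenna and the small subunit of Rubisco are encoded in the nucleus and imported. Most plastid genes are transcribed together with their neighbours into long RNAs that are then cut, spliced and trimmed, so that the RNA of neighbouring genes can differ after transcription. Plastid mRNAs have no stable poly(A) tail, and a short tail added there marks an RNA for breakdown. How the RNA was primed for labelling is not given in the sources used here. Leaf tissue was analysed in bulk, so fewer plastids or cells and less RNA in each cannot be told apart.

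The arrays were alike in general brightness, with a median signal between 36.2 and 40.1. The signal ratio between actin probe sets near the 3' end and the 5' end, a sign of RNA integrity, averaged 2.41 ± 0.12 in ape2 H, 2.73 ± 0.21 in ape2 L, 2.63 ± 0.36 in Ws-2 H and 2.98 ± 0.23 in Ws-2 L (SD, n = 3 each), with lower means in H than in L. RCA, the Rubisco activase of green leaf cells, had mean signals of 3993, 3834, 4109 and 4326 in the same groups. EXPA7 of root hairs stayed between 18.7 and 21.1, the guard cell gene FAMA between 43.6 and 55.2, and AUR1 of dividing cells between 50.6 and 54.5. In the annotation used here no probe set was found for the TPT gene by its symbols or gene ID, so its transcript was not used to check the genotypes.

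The plastid photosynthesis transcripts were among the brightest signals on the arrays. The median of their mean signals was 1734. That of atpB, a catalytic subunit of the ATP synthase, was highest, with a mean of 4568 and place 9 among all probe sets, and that of ndhH, an NDH subunit, was lowest, with 204 and place 3189. Signals of different probe sets depend on their probes as well as on the RNA, so these figures do not rank the transcripts. The change of each gene between groups was tested on log2(signal + 10) with limma on all 16076 probe sets that passed the filter, and genes with an adjusted p under 0.05 are said to be called. A log2 change is the first named group minus the second.

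In condition H, 5 of the 43 genes were higher in ape2 than in Ws-2 by limma and 0 were lower. They were rbcL, petD, psbE, psbJ and psbA, which belong to Rubisco, the cytochrome b6f complex and photosystem II. Of all probe sets tested 4.98% were called higher and 5.54% lower, against 11.6% and 0% of the plastid photosynthesis genes, and the share called in either direction was 11.6% beside 10.5%. The median log2 change of the 43 was 0.04, and that of all probe sets -0.01. Above 0 were 25 of the 43, beside 47.4% of all probe sets, and below 0 were 18, beside 52.6%. The 3 ape2 arrays lay above the 3 Ws-2 arrays for 9 genes, beside 12.7% of all probe sets, and below them for 4, beside 15.7%.

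The gene rbcL encodes the large, catalytic subunit of Rubisco, the enzyme that fixes carbon dioxide. Its signals were 2689, 2531 and 3231 on the ape2 H arrays, against 1713, 1396 and 1531 on the Ws-2 H arrays. The lowest ape2 H array lay well above the highest Ws-2 H array. The log2 change was 0.86 ± 0.11 (SE, adjusted p = 6.41e-05), a fold of 1.81, and the call was kept in all 21 alternatives, with changes from 0.76 to 0.93. In condition L the signals were 2164, 2287 and 2521 in ape2 and 1605, 1876 and 2037 in Ws-2, which also do not overlap. The change there was 0.34 ± 0.11 and just missed the threshold (adjusted p = 0.0570). It passed with quantile normalization (0.45, adjusted p = 0.00167), a filter at a signal of 50 (0.0435), the replicate number as a block (0.0371), and without array 3 of Ws-2 L (0.0430), array 1 of Ws-2 H (0.0488), or array 2 (0.0476) or 3 (0.0387) of ape2 H.

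The gene petD encodes subunit IV of the cytochrome b6f complex, which passes electrons from photosystem II to plastocyanin. It read 614, 445 and 813 on the ape2 H arrays, against 188, 281 and 247 on the Ws-2 H arrays. Its signal was also higher in ape2 L, at 452, 436 and 544, against 272, 316 and 256 in Ws-2 L. Every ape2 array was above every Ws-2 array, and the spread within ape2 H was wide, with a mean of 624 ± 185 (SD, n = 3). The log2 change was 1.33 ± 0.20 in H (adjusted p = 8.30e-04), the largest of the 43, and 0.74 ± 0.20 in L (0.0333). The call in H was kept in all 21 alternatives. That in L was lost without array 1 or 3 of Ws-2 L, any array of ape2 L, or array 1 of ape2 H. The changes in those runs were from 0.65 to 0.80, with an adjusted p of up to 0.117.

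**Figure D1:**
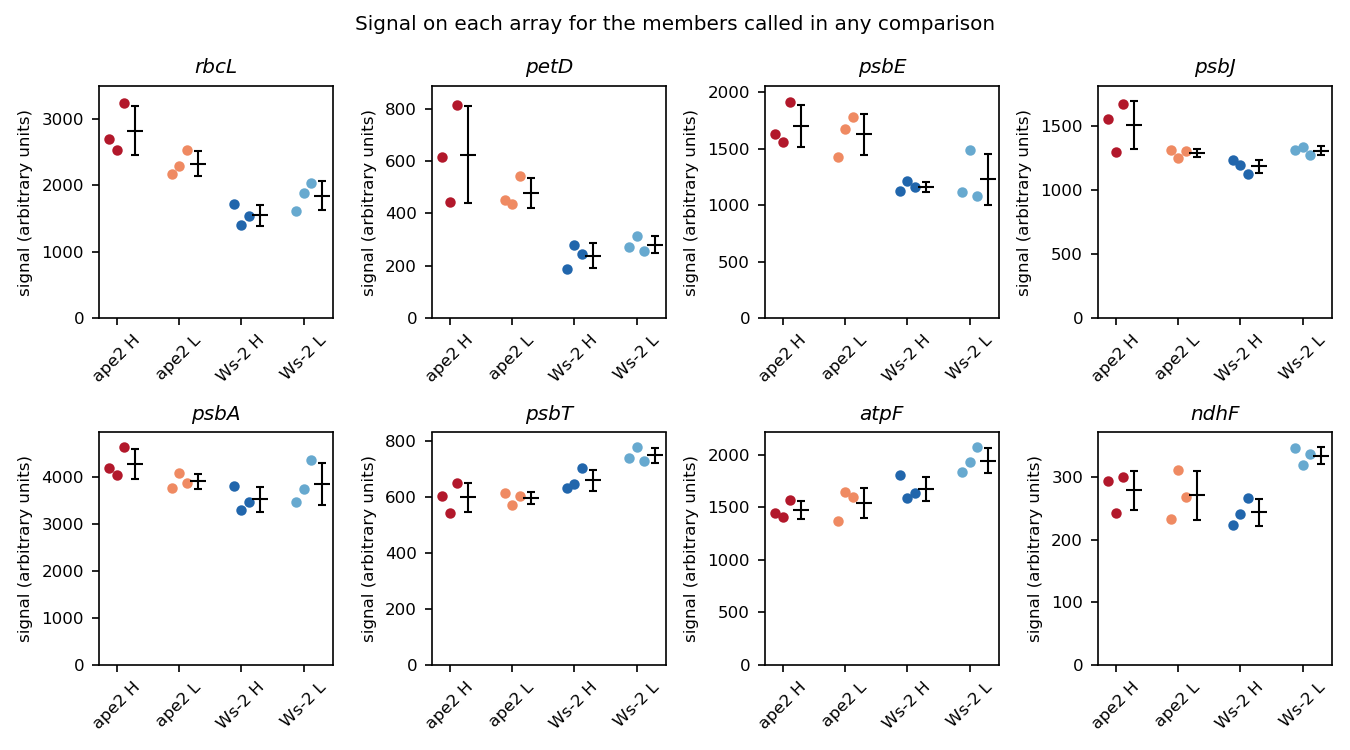
Signal in arbitrary units of the 8 plastid photosynthesis genes called in any comparison, with 1 point per array and a black bar for the mean ± SD of 3 arrays beside each group. The ape2 H and ape2 L points of rbcL and petD lie above the Ws-2 points of the same condition, and the Ws-2 H points of ndhF lie below those of Ws-2 L.

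Of the 15 photosystem II genes, 3 were called higher in ape2 than in Ws-2 in condition H, beside 4.98% of all probe sets. In either direction 10.5% of all probe sets were called. The gene psbE, for the alpha subunit of cytochrome b559, read 1627, 1561 and 1913 in ape2 H, against 1124, 1211 and 1160 in Ws-2 H (0.54 ± 0.11, adjusted p = 0.00632, kept in all 21 alternatives). In condition L it read 1430, 1674 and 1779 in ape2, against 1117, 1488 and 1081 in Ws-2. The groups overlapped there, because Ws-2 L 2 exceeded ape2 L 1, and the change of 0.41 ± 0.11 was called (0.0343). It did not pass without array 1 or 3 of Ws-2 L or array 2 or 3 of ape2 L (changes from 0.33 to 0.39, adjusted p up to 0.145). It was also lost with no filter (0.0649), with a constant prior (0.0883) and with only the groups compared (0.0708).

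The small subunit gene psbJ read 1555, 1301 and 1672 in ape2 H, against 1233, 1197 and 1127 in Ws-2 H. It rose by 0.34 ± 0.08 (adjusted p = 0.0120), a call that needed array 3 of Ws-2 H and arrays 1 and 3 of ape2 H (adjusted p up to 0.0677 without 1 of them). In condition L its signals were 1314, 1253 and 1304 in ape2, against 1314, 1340 and 1275 in Ws-2, and the change was -0.02 ± 0.08. The gene psbA encodes D1, the reaction centre protein that is damaged and replaced in the light. It read 4180, 4032 and 4643 in ape2 H and 3807, 3298 and 3465 in Ws-2 H, without overlap. In condition L it read 3771, 4078 and 3864 in ape2 and 3476, 3740 and 4353 in Ws-2, which overlap (0.02 ± 0.08, adjusted p = 0.909), and quantile normalization called it there (0.18, adjusted p = 0.00620). The change in H was 0.28 ± 0.08 (adjusted p = 0.0453), the smallest rise called. The call in H was lost without array 2 of Ws-2 L, array 2 or 3 of Ws-2 H, or array 1 or 3 of either ape2 group (up to 0.180), with no filter (0.0753) and with a constant prior (0.119).

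The gene psbF, for the beta subunit of cytochrome b559, read 2120, 1961 and 2670 in ape2 H, against 1848, 1850 and 1792 in Ws-2 H. These do not overlap, and the change of 0.28 ± 0.10 was not called (adjusted p = 0.0866) but was with quantile normalization (0.31, adjusted p = 0.0232). The gene psbD, for the reaction centre partner D2, was at 0.09 ± 0.10, and psbC and psbB, for the inner antenna proteins CP43 and CP47, were at -0.02 ± 0.08 and 0.22 ± 0.17. The largest value that did not pass was that of psbN, which is needed to assemble the photosystem II reaction centre and had the dimmest probe set of the 15. It read 393, 296 and 350 in ape2 H, against 268, 212 and 168 in Ws-2 H (0.67 ± 0.24, adjusted p = 0.122). The call was made with only the groups compared (0.0324), and without ape2 L 1 (0.0336) or ape2 L 3 (0.0284). Of the 15 genes, 10 had positive changes in H, beside 47.4% of all probe sets.

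Photosystem I transcripts did not pass the limma test in either condition. None of its 5 genes was called in H, beside 10.5% of all probe sets, and 0 had an unadjusted p under 0.05, beside 22.9%. Their changes were from -0.11 to 0.14, with 95% intervals that together ran from -0.33 to 0.31. The gene psaA encodes a protein of the reaction centre pair and read 2033, 2039 and 2198 in ape2 H, against 2615, 2116 and 2094 in Ws-2 H (-0.11 ± 0.10). The gene psaB, for its partner, read 3773, 3580 and 3764, against 4295, 3620 and 3541 (-0.04 ± 0.09). The iron-sulphur subunit gene psaC was the only one of the 5 above 0, at 0.14 ± 0.08. In condition L all 5 changes were negative, from -0.22 to -0.13, beside 48.3% of all probe sets below 0. With quantile normalization they ran from -0.10 for psaC to 0.00 for psaB. In L 0 of the 5 were called, beside 9.8% of all probe sets. An unadjusted p under 0.05 was reached by 1, beside 22.8%, psaJ at -0.22 ± 0.09 (adjusted p = 0.158).

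Apart from petD, the cytochrome b6f genes did not pass in either condition. Of all probe sets 10.5% were called in H and 9.8% in L. The gene petB, for cytochrome b6, read 3508, 3195 and 3353 in ape2 H, against 3810, 3317 and 3210 in Ws-2 H (-0.04 ± 0.08). The gene petA, for cytochrome f, read 2365, 2154 and 2164 in ape2 H, against 2714, 2421 and 2417 in Ws-2 H. These do not overlap, and the change of -0.17 ± 0.09 was not called (adjusted p = 0.262). The small subunit gene petN was at 0.43 ± 0.16 (0.114), while petG and petL were at 0.22 and -0.03. In condition L the 5 other genes ran from -0.14 to 0.03, and petB, at -0.05 there, was at 0.11 with quantile normalization.

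The 6 genes of the ATP synthase, which makes ATP from the proton gradient across the thylakoid membrane, had a median change of 0.00 in H and -0.28 in L. In L all 6 changes were negative, beside 48.3% of all probe sets, and 1 was called, beside 9.8%. The gene atpF, for a subunit of the stalk, read 1374, 1648 and 1598 in ape2 L, against 1834, 1931 and 2073 in Ws-2 L. It fell by 0.34 on the log2 scale (SE 0.08, adjusted p = 0.0147), a call lost when array 3 of Ws-2 L or array 1 of ape2 L was removed (up to 0.0753) and with a constant prior (0.0540). In H it was at -0.18 ± 0.08 (0.189), again without overlap. The gene atpA, for the alpha subunit, had similar values, -0.29 ± 0.13 in L (0.207) and -0.27 ± 0.13 in H (0.262). The gene atpB, for the beta subunit, was at -0.16 ± 0.10 in L and -0.01 ± 0.10 in H, and the value in L was 0.00 with quantile normalization. The gene atpI had the dimmest probe set of the 6 and its largest spread, 254 to 501 on the ape2 L arrays and 395 to 536 on the Ws-2 L arrays.

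None of the 10 genes of the NDH complex, which returns electrons from ferredoxin to plastoquinone around photosystem I, was called by limma between the genotypes. The share of all probe sets called was 10.5% in H and 9.8% in L. An unadjusted p under 0.05 was reached by 2 of the 10 in each condition, beside 22.9% of all probe sets in H and 22.8% in L. In H these were ndhH, at 226, 197 and 255 in ape2 against 183, 158 and 165 in Ws-2 (0.40 ± 0.14, adjusted p = 0.0931), and ndhK (0.23 ± 0.09, 0.151). The call of ndhH was made with only the groups compared (0.0336) and without ape2 L 3 (0.0457). In L they were ndhF at -0.30 ± 0.11 (0.0879), which was called without ape2 L 2 (-0.40, adjusted p = 0.0254), and ndhI at -0.28 ± 0.11 (0.123). The gene ndhA was at 0.04 ± 0.08 in H and -0.18 ± 0.08 in L.

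**Figure D2:**
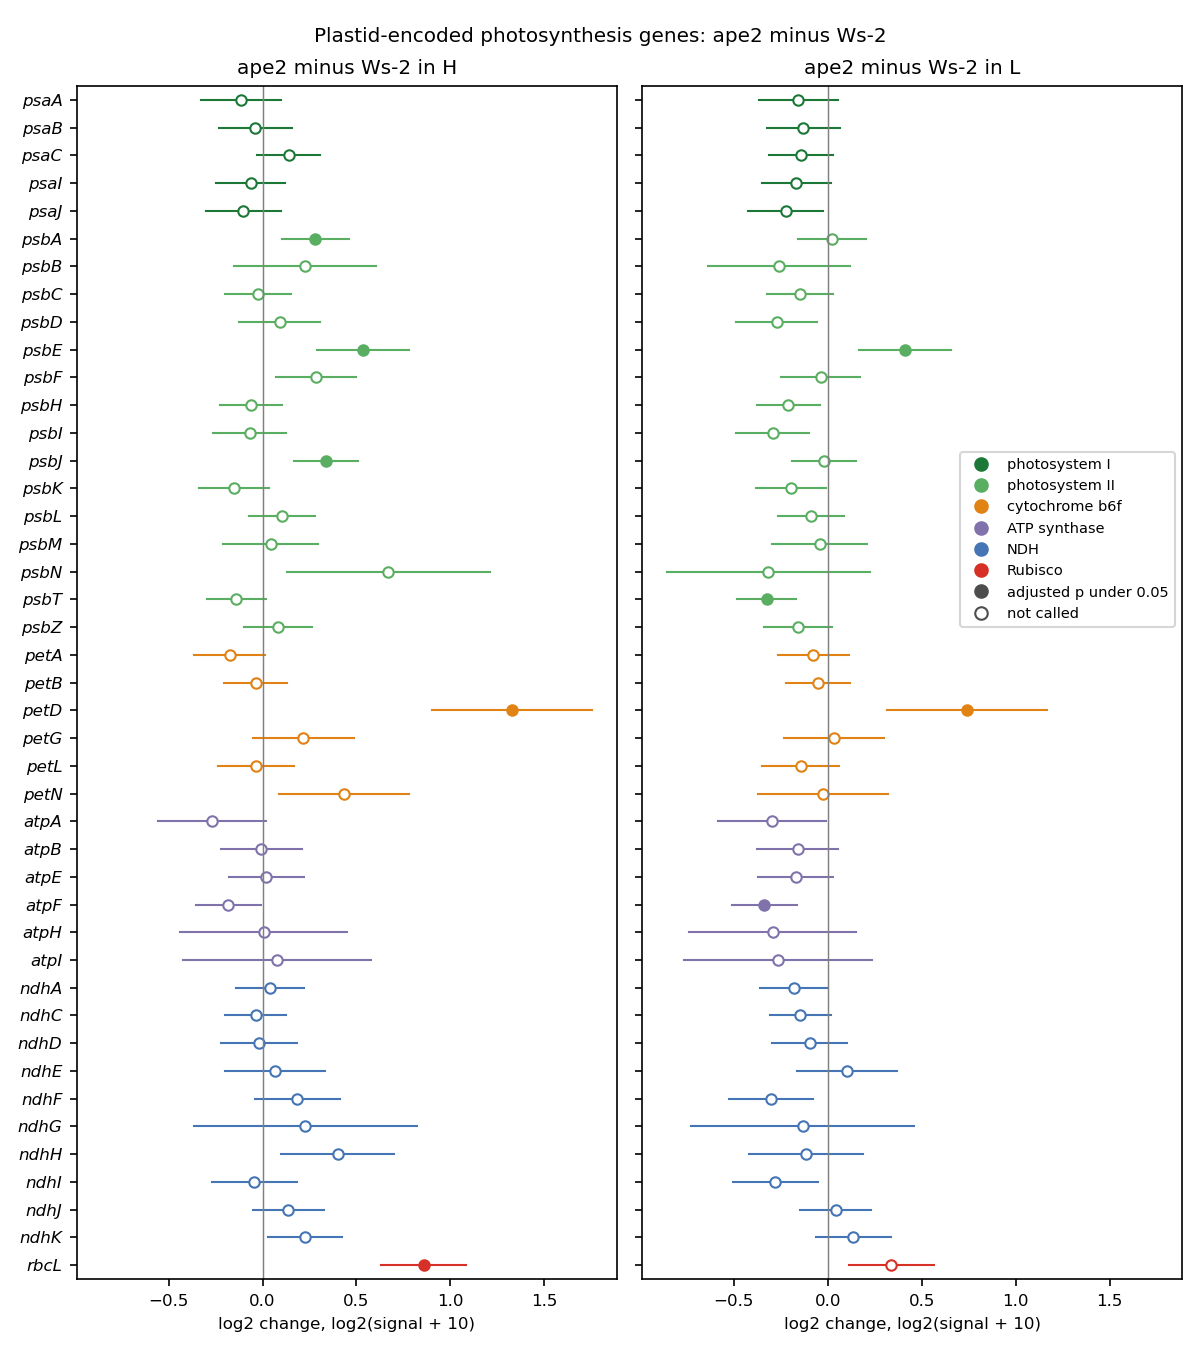
Change of each of the 43 genes between ape2 and Ws-2 in condition H (left) and condition L (right), on the log2(signal + 10) scale, with 95% intervals and colours for the complexes. Filled points passed an adjusted p of 0.05: rbcL, petD, psbE, psbJ and psbA in H, and petD, psbE, psbT and atpF in L.

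In condition L, 2 of the 43 genes rose in ape2, petD and psbE, and 2 fell, atpF and psbT. The share called was 9.3%, beside 9.8% of all probe sets, of which 5.04% were higher and 4.76% lower. The share of these genes called was thus close to that of the array in general. The gene psbT encodes a small subunit of photosystem II and read 616, 572 and 603 in ape2 L, against 740, 780 and 730 in Ws-2 L. It fell by 0.32 on the log2 scale (SE 0.07, adjusted p = 0.0106), and the call was lost without Ws-2 L 2 (0.0529). In condition H it read 605, 545 and 650 in ape2, against 632, 648 and 703 in Ws-2, which overlap (-0.14 ± 0.07, adjusted p = 0.286).

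Most of the other genes had small negative values in condition L. Of the 43, 8 were above 0, beside 51.7% of all probe sets, and 35 were below 0, beside 48.3%, with a median of -0.15 beside 0.01, and 28 were below 0 with a median of -0.06 under quantile normalization. The 26 other plastid genes on the array, mostly for ribosomal proteins and RNA polymerase, had a median of -0.18. Other bright probe sets had such values too: over the 199 with a mean signal of 2000 or more that are not among the probe sets of 1 plastid gene, the median was -0.13, beside -0.16 for the 19 plastid photosynthesis genes of that brightness. Of the 199, 45 have 1 gene named, 8 have several and 146 have none, so what they measure is mostly not known here. The part of brightness in these values was not tested. The ape2 arrays lay above the Ws-2 arrays for 2 genes, beside 13.6% of all probe sets, and below them for 7, beside 12.9%. Leaving out 1 array moved the median of the 43 between -0.20 and -0.09.

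Array by array, the 43 genes moved by little. The median deviation of the genes from their own 12-array means ran from -0.12 to 0.08 on the ape2 H arrays, from -0.11 to 0.00 on the ape2 L arrays, from -0.11 to 0.07 on the Ws-2 H arrays and from -0.02 to 0.19 on the Ws-2 L arrays. These ranges overlap. For the ATP synthase genes they were wider, from -0.29 to 0.12 in ape2 L and from 0.00 to 0.32 in Ws-2 L, with ape2 L 1 lowest and Ws-2 L 3 highest. By complex, rbcL had no overlap between the genotypes in either condition. Photosystem I had none in condition L, with -0.11 to -0.06 in ape2 and -0.03 to 0.28 in Ws-2. These deviations are from the main scaling, and with quantile normalization the photosystem I changes in L ran from -0.10 to 0.00.

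**Figure D3:**
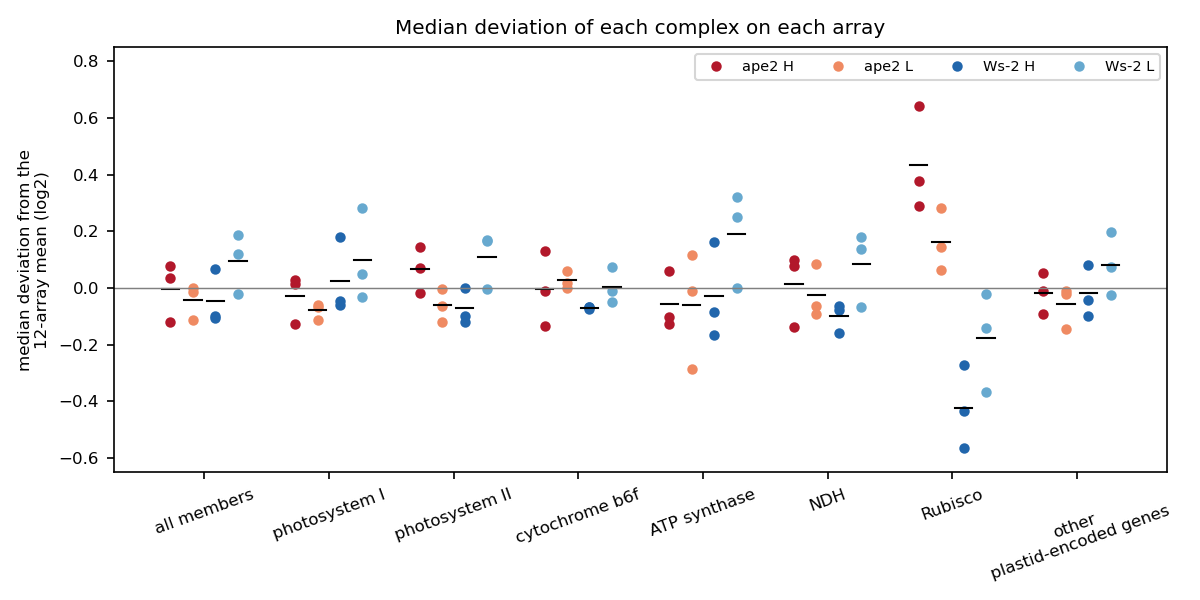
Median deviation of the genes of each complex from their own mean over the 12 arrays, in log2 units, with 1 point per array and a line for the mean of the group. The groups overlap for all 43 genes together, and rbcL, the single gene of Rubisco, is higher in ape2 than in Ws-2 in both conditions.

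The estimated changes of genes that are transcribed together were not always alike, but no tested difference passed after adjustment, as given below. In the unit psbB, psbT, psbH, petB and petD, the last gene was higher in ape2 by 1.33 in H, and its neighbour petB was at -0.04. In the unit psbE, psbF, psbL and psbJ, the changes in H were 0.54, 0.28, 0.11 and 0.34, and psbE alone of the 4 was called in L, where the others were at -0.04, -0.09 and -0.02. The unit psaA, psaB and rps14 had changes of -0.11, -0.04 and 2.21 in H, the last for a gene of the plastid ribosome (adjusted p = 0.00747). The difference between rps14 and its neighbours was not tested. The 4 ATP synthase genes of 1 unit, atpI, atpH, atpF and atpA, ran from -0.34 to -0.26 in L and from -0.27 to 0.08 in H. Units were set from general knowledge of the plastid genome after the values were seen.

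For the 24 neighbouring pairs of photosynthesis genes within these units, the difference of their genotype changes was tested over samples, with an exact two-sided permutation test within each condition. Its 400 regroupings allow no p below 0.005. The smallest p was reached by petB minus petD, at -1.36 in H and -0.79 in L, and by psbE minus psbF, at 0.25 and 0.45, each without overlap of the genotypes in either condition. Both had a Benjamini-Hochberg adjusted p of 0.06 over the 24 pairs, by the exact permutation test with n = 3 arrays a group, and so did not pass. With 24 pairs, 1 or 2 pairs at this smallest p cannot fall below 0.06 on their own, so missing the threshold here is set by the number of arrays and pairs. In all 5 pairs had an unadjusted p under 0.05 and 0 passed after adjustment.

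**Figure D4:**
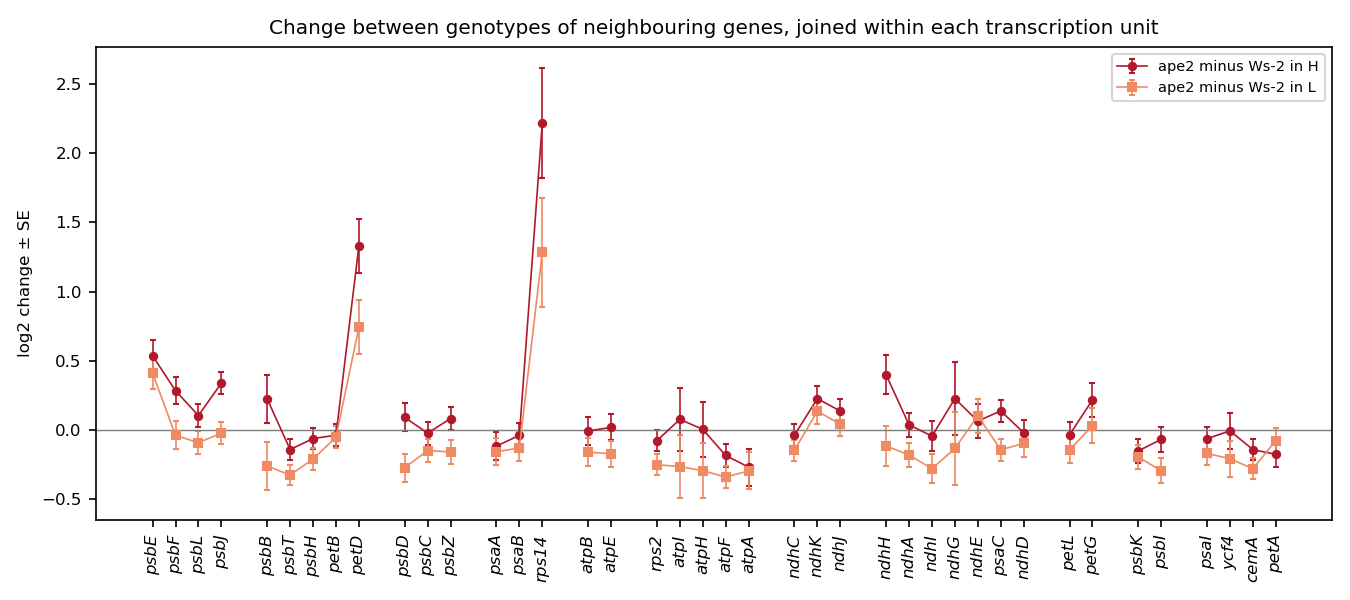
Change between ape2 and Ws-2 (log2, ± SE) in condition H (circles) and condition L (squares) for genes in their order within 11 transcription units, including the non-photosynthesis genes rps14, rps2, ycf4 and cemA. The last genes of the petD and rps14 units stand above their neighbours in both conditions.

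The comparison of H with L within a genotype gave 1 call among the 43 genes. In Ws-2 it was ndhF, which encodes a membrane subunit of NDH and read 224, 240 and 267 in Ws-2 H, against 346, 320 and 336 in Ws-2 L. It fell by 0.44 on the log2 scale (SE 0.11, adjusted p = 0.0324), without overlap. The call did not hold without 1 of the Ws-2 L arrays, whichever it was, or without array 1 or 2 of Ws-2 H. The changes in those runs were from -0.47 to -0.39, with an adjusted p of up to 0.128. It was also lost with no filter (0.0676) and with a constant prior (0.0960). This single call is 2.33% of the genes, beside 2.95% of all probe sets, 1.03% higher and 1.92% lower. An unadjusted limma p under 0.05 was reached by 14 of the 43 genes (32.6%), beside 13.8% of all probe sets. In ape2 ndhF read 294, 243 and 300 in H and 233, 311 and 267 in L, which overlap (0.05 ± 0.11).

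In Ws-2, 41 of the 43 changes were below 0, beside 50% of all probe sets, with a median of -0.16 beside 0.00, and with quantile normalization 36 were. Of the 43 genes, 13 had no overlap between Ws-2 H and Ws-2 L and were lower in H, beside 10.1% of all probe sets, and 0 were higher, beside 9.64%. The 26 other plastid genes were all below 0, with a median of -0.13, and limma called 0 of them, with 5 at an unadjusted p under 0.05, beside 13.8% of all probe sets. The actin ratio given above was lower in H than in L in both genotypes, and its part in these values was not tested. The comparison shares the Ws-2 L arrays with that of ape2 L and Ws-2 L.

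In ape2, limma called 0 of the 43 genes between H and L, beside 4.03% of all probe sets (1.79% higher and 2.25% lower), and 3 had an unadjusted p under 0.05, beside 17.8% of all probe sets. These were psbJ (0.22 ± 0.08, adjusted p = 0.157), psbD (0.26 ± 0.10, 0.181) and rbcL (0.27 ± 0.11, 0.183), all higher in H. Without ape2 H 2, the call of psbJ was made (0.32, adjusted p = 0.0235). The median of the 43 was 0.06, with 34 above 0, beside 44% of all probe sets, and 9 below 0, beside 56%. With quantile normalization it was 0.01, with 22 above 0. For 3 genes the H arrays lay above the L arrays, beside 8.91% of all probe sets, and for 0 below them, beside 12.9%. The psbD signals were 2338, 2128 and 2371 in ape2 H, against 1709, 2049 and 1957 in ape2 L, without overlap.

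The difference between the genotypes in their change from L to H was tested directly as the interaction, and limma called 0 of the 43 genes, beside 0.0187% of all probe sets (0.0124% higher and 0.00622% lower), with 9 at an unadjusted p under 0.05, beside 7.64% of all probe sets. The smallest p was that of rbcL, at 0.52 ± 0.15 (adjusted p = 0.360), followed by ndhF at 0.49 ± 0.15 (0.413) and psbJ at 0.36 ± 0.11 (0.434). For rbcL the change from L to H was 0.27 in ape2 and -0.25 in Ws-2. Of the 43 values 41 were above 0, beside 46.2% of all probe sets, and 2 below 0, beside 53.8%. With quantile normalization 35 were above 0. The median was 0.18, beside -0.02 for all probe sets, 0.18 for the other plastid genes and 0.10 for the 199 other bright probe sets. The interaction also uses the Ws-2 L arrays. Its signs are therefore not independent of those for ape2 in L and for H in Ws-2.

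Among the 43 genes, the dimmer ones had the larger interaction values. For the 11 genes with a mean signal under 1000 the median interaction was 0.36, for the 13 between 1000 and 2000 it was 0.16, and for the 19 at 2000 or more it was 0.13. For the other probe sets the order of the signed medians was the opposite, with -0.03, 0.02 and 0.10 from dim to bright. Without the sign, their median sizes were 0.14, 0.09 and 0.11, so the dim ones had the largest there too. For ape2 minus Ws-2 in H the signed medians of the 43 genes were 0.23, 0.04 and -0.02 in the same order. Median sizes in H were 0.23, 0.14 and 0.06 for the 43 genes, and 0.15, 0.08 and 0.06 for the other probe sets. Of the genes called higher in ape2 than in Ws-2 in H, rbcL and psbA have bright probe sets, with mean signals of 2132 and 3892. The part of brightness was not tested here either.

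**Figure D5:**
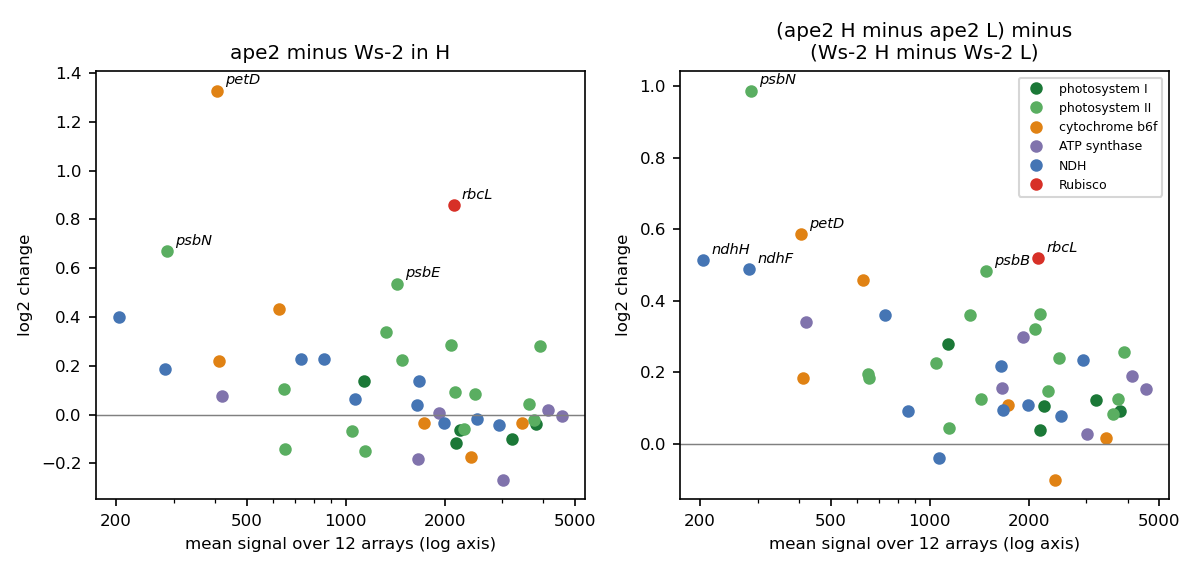
Change of each of the 43 genes against its mean signal over the 12 arrays (log axis), for ape2 minus Ws-2 in H (left) and for the interaction (right), both in log2 units. Dimmer genes such as psbN, petD and ndhH lie further from 0 than most bright ones, with rbcL as an exception on both sides.

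The nuclear partners of these complexes that could be tested did not pass. Of 82 listed nuclear genes for subunits, antenna proteins, Rubisco and plastid transcript factors, 14 have a probe set named here and 13 could be tested. Limma called 0 of the 13 in each of the 5 comparisons. The shares of all probe sets called were 10.5% in H and 9.8% in L. They were 2.95% for H against L in Ws-2, 4.03% for it in ape2 and 0.0187% for the interaction. An unadjusted p under 0.05 was reached by 1 of the 13 in H, in L and between H and L in ape2. The shares of all probe sets there were 22.9%, 22.8% and 17.8%. In L 12 of the 13 were below 0, beside 48.3% of all probe sets, with a median of -0.13. In the interaction 13 of 13 were above 0, beside 46.2%, with a median of 0.10. In condition H, PSAE1 of photosystem I was at -0.19 ± 0.14, PSBW of photosystem II at 0.08 ± 0.08, PETM of the cytochrome b6f complex at -0.07 ± 0.09, ATPC1, the gamma subunit of the ATP synthase, at -0.01 ± 0.08, and NDHL of the NDH complex at 0.06 ± 0.08. RCA, which acts on Rubisco, was at -0.04 ± 0.09 in H and -0.17 ± 0.09 in L, beside 0.86 and 0.34 for rbcL. Of the 5 listed nuclear Rubisco genes only RCA has a probe set named here, so the small subunit genes were not assessed. CRP1, which in maize is needed for the processing of petD RNA and the translation of petA and psaC, had mean signals of 279 in ape2 H and 244 in Ws-2 H (0.19 ± 0.08, adjusted p = 0.154). RPOTMP, an organelle RNA polymerase, was too dim to be tested, with mean signals between 6.40 and 10.5.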

How the data were processed

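The deposited table holds intensity values, 1 linear signal per probe set and array, which the authors made with MAS5 per the submitters' processing notes. A MAS5 version and detection calls were not used. MAS5 scales each array by itself, so a change shared by most transcripts would not be seen. Each array was set to a 2% trimmed mean of 100 over all 22810 probe sets, and the 64 controls were then left out. The filter on dim signals kept the 16076 probe sets that reached 20 on 3 or more arrays. A model with 4 group means was fitted by limma 3.58.1 (R 4.3.3, prior with trend, robust) to log2(signal + 10) of the 12 arrays, for 5 contrasts. Tests were two-sided and adjusted p-values are Benjamini-Hochberg values over the whole filtered table. The code was tested on simulated data. The number of arrays limits the precision.

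Probe sets were named through the platform annotation and RefSeq's gene table (TAIR10.1), by gene ID. The 43 genes, the nuclear lists and the tests were chosen with earlier results of these data known. Genes named by rule are those called in any contrast, rbcL, psaA, psbA, petA, atpB and ndhA, and the brightest and dimmest of each complex; others were named after their values were seen. Alternatives were quantile normalization, no rescaling, offsets of 1 and 32, a filter at 50 or none, a prior that is constant and not robust, a fit to the compared groups alone, a block for the replicate number, and leaving out each array.

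Arrays that share a replicate number did not deviate together in each pair of groups. Their correlations ran from -0.28 to 0.37 over 18 pairs, beside -0.25 to 0.27 for unlike numbers, so the numbers were not taken as pairing. Between H and L of the same genotype, arrays of the same number had positive correlations. These ran from 0.04 to 0.12 in Ws-2 and from 0.07 to 0.37 in ape2. A pairing within each genotype was not fitted.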

Additional observations from a re-analysis of the deposited data

How the results depend on the processing

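The counts of called genes rest on few arrays. In condition L the main count of 4 was 2 with a constant prior, and it lay between 2 and 6 when 1 array was left out, with 2 without array 3 of Ws-2 L or array 1 or 3 of ape2 L. In condition H the count of 5 lay between 3 and 7, with 3 without array 3 of Ws-2 H or array 1 or 3 of ape2 H, where rbcL, petD and psbE were those called. The single call for H against L in Ws-2 was 0 with no filter and with a constant prior, and between 0 and 1 without 1 array. For H against L in ape2 the count lay between 0 and 1, and for the interaction it was 0 in each alternative run. Each median of the 43 genes moved by less than the spread between arrays (SD 0.0938) in each alternative. That spread exceeds the main medians for ape2 in H (0.04) and for H in ape2 (0.06), so it cannot show that they hold. Quantile normalization gave -0.06 for ape2 in L (main -0.15), 0.06 for ape2 in H and 0.01 for H in ape2. It gave -0.17 for H in Ws-2 (main -0.16) and 0.12 for the interaction (main 0.18). Without 1 array the medians lay between -0.20 and -0.09 for ape2 in L, and -0.01 and 0.12 for ape2 in H. They lay between -0.19 and -0.12 for H in Ws-2, 0.00 and 0.11 for H in ape2, and 0.13 and 0.24 for the interaction. With the replicate block 5 genes were called in L and 5 in H. It added rbcL in L, and it is reported as an alternative since the replicate numbers were not found to pair the arrays over all groups. For H against L in Ws-2 the count was 1 with the block. With quantile normalization 6 genes were called in L, 4 higher and 2 lower, beside 2 and 2, with rbcL and psbA added. Offsets of 1 and 32 and no rescaling gave the main counts of calls in each contrast. Over all probe sets, the count for H against L in Ws-2 was 305 with a constant prior, against 474, that in ape2 was 422 with it and 383 with only the groups compared, against 648, and that of the interaction was 0 with a constant prior, against 3. Without 1 array these counts lay between 1022 and 1605 for ape2 in L (main 1575), 1102 and 1846 for ape2 in H (main 1690), 265 and 504 for H in Ws-2, 366 and 669 for H in ape2, and 0 and 7 for the interaction. The fit to the compared groups alone gives no value for the interaction.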
